A study of Mus musculus with 2 samples.

Results

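Semaphorins and their plexin and neuropilin receptors form 1 of the large families of guidance cues of the developing nervous system. The mouse genes of this family were taken by symbol, as 20 semaphorins, 9 plexins and 2 neuropilins, and all 31 were found among the 43346 Ensembl genes of the deposited tables. The rule uses gene names and no measured value. Their levels were read in 2 total RNA-seq libraries of mouse midbrain at embryonic day 14.5, each made from the midbrain of a different pup of the B6NCrl strain, here embryo 1 and embryo 2. The embryos were untreated replicates of 1 group and were collected on different days, so the design compares genes with each other within a tissue and holds no contrast between conditions. The labels give the sex as a pool of both sexes, although each library is described as the midbrain of a single pup. RNA above 200 nt was extracted with the mirVana kit and 10 ng entered each library, with synthetic ERCC spike-in RNAs added.

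Semaphorins are secreted (class 3), membrane-spanning (classes 4 to 6) or lipid-anchored (class 7) proteins with a shared sema domain. Plexins span the membrane and carry the signal into the cell through a GTPase-activating domain, while most class 3 semaphorins need a neuropilin beside a class A plexin to bind. The family is known for repelling and attracting growing axons, and also for roles in neuronal migration and in the growth of blood vessels. In the midbrain, Sema3f and its receptor Nrp2 are known for steering the axons of dopamine neurons.

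A basic stretch at the end of class 3 semaphorins helps them to hold on to neuropilins and is where furin-type proteases can cut. It is shown here because it sets the secreted ligands apart from the others in sequence, with levels used only to choose the transcript. The last 60 coding bases of the most abundant protein-coding transcript of each class 3 gene, without the stop codon, are given 5′ to 3′ from GENCODE M21 (GRCm38) with arginine and lysine codons in capitals.
Sema3a: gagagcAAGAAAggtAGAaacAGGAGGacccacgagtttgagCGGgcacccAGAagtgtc
Sema3b: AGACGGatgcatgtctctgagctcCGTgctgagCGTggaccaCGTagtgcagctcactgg
Sema3c: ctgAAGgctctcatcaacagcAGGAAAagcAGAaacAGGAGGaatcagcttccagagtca
Sema3d: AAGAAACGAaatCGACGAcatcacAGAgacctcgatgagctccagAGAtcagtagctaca
Sema3e: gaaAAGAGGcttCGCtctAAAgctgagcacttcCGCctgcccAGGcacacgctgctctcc
Sema3f: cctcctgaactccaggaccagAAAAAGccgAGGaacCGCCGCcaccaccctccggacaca
Sema3g: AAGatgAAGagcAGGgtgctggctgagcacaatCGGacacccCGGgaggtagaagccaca

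Among these last 20 codons, the 7 class 3 genes had 5 to 7 arginine or lysine codons, with a median of 6. The 13 other semaphorins had 0 to 4, with a median of 2, and the median over 20563 genes with a protein-coding transcript was also 2. At least 5 such codons were found in 17.8% of those genes, so basic ends are common and are a description of these ligands. Each of the 7 ends lies within a single exon, the last one of its transcript that holds these coding bases. That of Sema3a is at chr5:13599541-13599600 on the plus strand and that of Sema3f at chr9:107682432-107682491 on the minus strand. For Sema3d, Sema3e and Sema3g, the transcript in the deposited tables and the one in GENCODE M21 differ in length, and the sequence is that of GENCODE M21.

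The libraries held 32716141 counts in embryo 1 and 30185472 counts in embryo 2, with 3.15% and 3.32% of them on spike-ins. Levels are the authors' TPM, a length-scaled abundance whose sum is the same in every library. All 8 midbrain markers, among them Otx2 and En1, reached 1 TPM in both embryos, against 0 of 4 forebrain and 0 of 4 hindbrain and trunk Hox genes. The embryos differed in markers of non-neural cells. Summed TPM of 8 mesenchyme and meninges markers was 404 in embryo 1 and 10.9 in embryo 2, and that of 8 endothelial markers was 172 in embryo 1 and 106 in embryo 2. In bulk tissue, fewer cells of a type and less RNA per cell cannot be told apart.

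The family was broadly present in both midbrains. With 1 TPM or more in both embryos as the rule, 28 of 31 genes were detected, namely 18 of 20 semaphorins and 10 of 11 receptors, while the same rule held for 59.5% of 21474 protein-coding genes. Only Sema3d, Sema3g and Plxnb3 fell short. The median gene of the family was at 13.7 TPM, against 4.66 over all protein-coding genes and 20.3 over the detected ones. Levels spanned from 0.09 TPM for Sema3g in embryo 2 to 82.9 TPM for Plxnb2 in embryo 1.

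**Figure D1:**
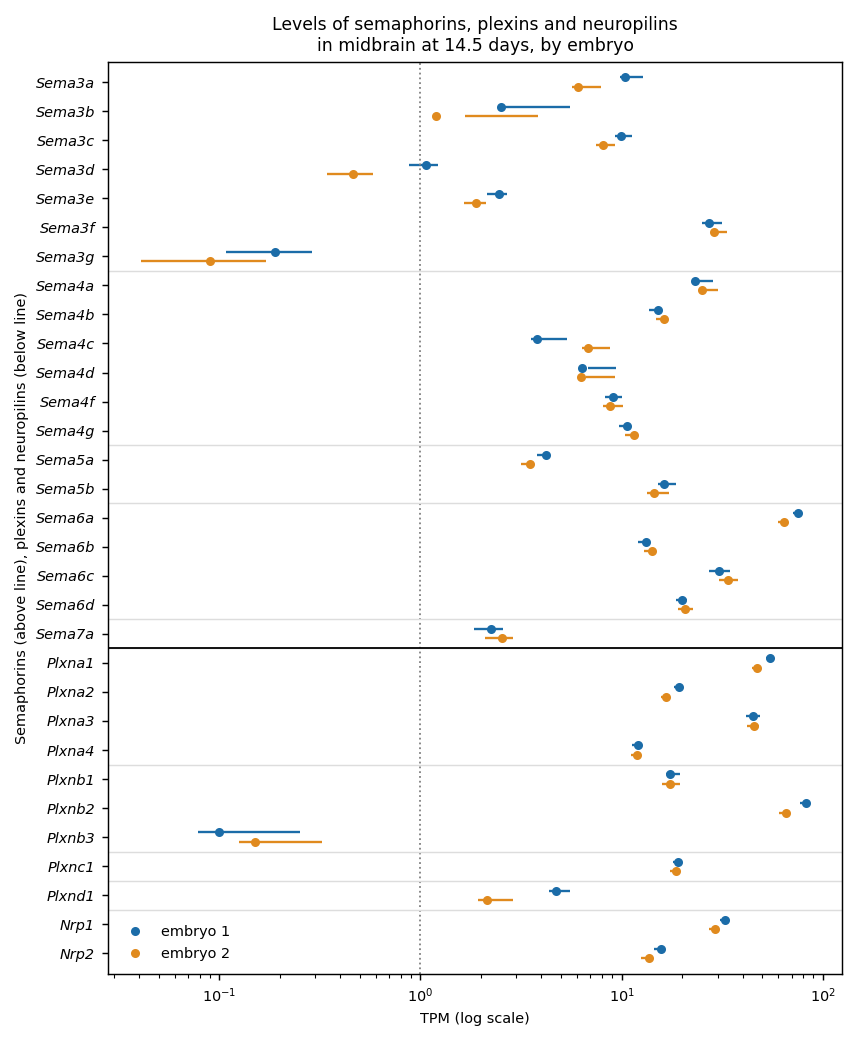
TPM of each gene in embryo 1 (blue) and embryo 2 (orange) on a log axis, with the authors' deposited interval as a line and the level of 1 TPM dotted. Semaphorins stand above the black line and receptors below it; Plxnb2, Sema6a and Plxna1 lie at the right, and Sema3g and Plxnb3 lie below 1 TPM in both embryos.

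Class 6 semaphorins, which span the membrane and bind class A plexins, were the most abundant ligands. Together their 4 genes held 49.0% of all semaphorin TPM in embryo 1 and 48.4% in embryo 2. Sema6a, which acts through Plxna2 and Plxna4, led with 75.4 TPM in embryo 1 and 64.1 TPM in embryo 2 (69.7 ± 8.004, SD, n = 2). Sema6c stood at 30.4 TPM in embryo 1 and 33.9 TPM in embryo 2, and Sema6d, a ligand of Plxna1, at 19.96 and 20.8 TPM. Sema6b was the lowest of the class with 13.3 TPM in embryo 1 and 14.2 TPM in embryo 2. The 4 genes kept the order Sema6a, Sema6c, Sema6d, Sema6b in both embryos, with no overlap between neighbours.

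Class 4 semaphorins, also membrane-spanning and known in the immune system as well as the brain, held 24.0% and 27.2% of semaphorin TPM in embryos 1 and 2. Sema4a led with 23.2 TPM in embryo 1 and 25.04 TPM in embryo 2, followed by Sema4b at 15.1 and 16.3 TPM. Sema4g, which can bind Plxnb2, had 10.6 TPM in embryo 1 and 11.5 TPM in embryo 2, and Sema4f had 9.09 and 8.81 TPM. The ligands of the best-known class B plexin pairs were the lowest of the class. Sema4d, the classic ligand of Plxnb1, had 6.36 TPM in embryo 1 and 6.31 TPM in embryo 2. Sema4c, a ligand of Plxnb2, had 3.82 TPM in embryo 1 and 6.84 TPM in embryo 2, the widest gap of the class.

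Class 3, the secreted semaphorins, held 19.0% of semaphorin TPM in embryo 1 and 17.0% in embryo 2, with Sema3f as its highest gene. Sema3f, the Nrp2 ligand, had 27.3 TPM in embryo 1 and 28.9 TPM in embryo 2 (28.1 ± 1.07, SD, n = 2), of which 41.1% in embryo 1 and 26.5% in embryo 2 lay outside protein-coding transcripts. Sema3c, which binds both neuropilins, had 9.93 TPM in embryo 1 and 8.09 TPM in embryo 2, and Sema3a, the classic repellent acting through Nrp1, had 10.5 and 6.07 TPM. The levels of Sema3a and Sema3c overlapped between embryos, so their order is not set, while Sema3f lay above both in each embryo. Sema3f was 2.62 times Sema3a in embryo 1 and 4.75 times in embryo 2, or 1.54 and 3.49 times on protein-coding transcripts alone. The other class 3 genes were low. Sema3e, which binds Plxnd1 without a neuropilin, had 2.46 TPM in embryo 1 and 1.89 TPM in embryo 2, and Sema3b had 2.53 and 1.19 TPM. Sema3d had 1.07 TPM in embryo 1 and 0.46 TPM in embryo 2, from 132 and 57 counts. Sema3g had 0.19 and 0.09 TPM, from 16 counts in embryo 1 and 8 counts in embryo 2.

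Class 5 semaphorins carry thrombospondin repeats beside the sema domain. Sema5b had 16.3 TPM in embryo 1 and 14.5 TPM in embryo 2, well above Sema5a with 4.19 and 3.52 TPM. Sema7a, the lipid-anchored ligand of Plxnc1, had 2.25 TPM in embryo 1 and 2.54 TPM in embryo 2, which was 0.79% and 0.92% of semaphorin TPM.

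Class A plexins, the signalling partners of the neuropilins, held 43.2% of receptor TPM in embryo 1 and 45.1% in embryo 2. Plxna1 had 54.9 TPM in embryo 1 and 46.9 TPM in embryo 2 (50.9 ± 5.67, SD, n = 2). Plxna3 had 45.2 TPM in embryo 1 and 45.3 TPM in embryo 2, Plxna2 had 19.3 and 16.7 TPM, and Plxna4 had 12.0 and 11.9 TPM. The 4 genes followed the same order in both embryos, with no overlap between the levels of neighbours. In embryo 2 the deposited intervals of Plxna1 (44.6 to 46.6 TPM) and Plxna3 (42.0 to 48.4 TPM) did overlap. Plxna1 exceeded Plxna4 by 4.57 times in embryo 1 and 3.95 times in embryo 2.

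Class B plexins act on the RhoA pathway through bound exchange factors. Plxnb2, known for its role in neural tube closure and in proliferating neural precursors, had the highest deposited TPM of the family, with 82.9 TPM in embryo 1 and 65.8 TPM in embryo 2 (74.4 ± 12.1, SD, n = 2). Plxnb1 had 17.5 TPM in embryo 1 and 17.4 TPM in embryo 2. Plxnb3 had 0.10 TPM in embryo 1 and 0.15 TPM in embryo 2, from 10 and 17 counts, and overlapped Sema3g at the low end of the family. Plxnc1, the Sema7a receptor, had 19.1 TPM in embryo 1 and 18.6 TPM in embryo 2. Plxnd1, a plexin known from blood vessels, had 4.72 TPM in embryo 1 and 2.14 TPM in embryo 2, with no overlap of the authors' intervals.

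The neuropilins have short cytoplasmic tails and are also co-receptors for VEGF, the vascular growth factor. Nrp1 had 32.8 TPM in embryo 1 and 29.1 TPM in embryo 2 (30.9 ± 2.62, SD, n = 2). Nrp2 had 15.6 TPM in embryo 1 and 13.7 TPM in embryo 2 (14.6 ± 1.40, SD, n = 2). Nrp1 was 2.10 times Nrp2 in embryo 1 and 2.13 times in embryo 2, a ratio whose SD of 0.0229 is small beside its mean of 2.11.

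Across the whole order of 31 genes, 13 of the 30 neighbouring pairs were apart, meaning that the lower of the 2 levels of the higher gene exceeded the higher of the 2 levels of the next. Plxnb2 and Sema6a were not apart, nor were Sema6c and Nrp1, nor the run of genes from Plxnc1 through Plxna2 to Plxnb1. Sema6a, Plxna1 and Plxna3 were each apart from the gene ranked next below.

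Ligands and receptors were summed to ask how they balanced. The 20 semaphorins summed to 284 TPM in embryo 1 and 275 TPM in embryo 2, and the 11 receptors to 304 TPM in embryo 1 and 267.5 TPM in embryo 2. Ligand over receptor was 0.933 in embryo 1 and 1.03 in embryo 2 (0.981 ± 0.0672, SD, n = 2), so the embryos lay on either side of 1. The balance of sums came from fewer receptor genes at higher levels. The median semaphorin was at 8.98 TPM against 17.99 TPM for the median receptor. By embryo, these medians were 10.2 against 19.1 TPM in embryo 1 and 8.45 against 17.4 TPM in embryo 2. Their ratio, taken in each embryo and then averaged, was 0.510.

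Single ligand and receptor pairs, 17 in all and chosen from textbook knowledge, were mostly uneven. Sema6a stood above both of its class A receptors, at 3.90 times Plxna2 in embryo 1 and 3.85 times in embryo 2, and at 6.27 and 5.40 times Plxna4. Sema3f was 1.75 times Nrp2 in embryo 1 and 2.11 times in embryo 2, or 1.15 and 1.66 times on protein-coding transcripts alone. Sema3a, by contrast, was 0.319 times Nrp1 in embryo 1 and 0.209 times in embryo 2. Sema6b was close to Plxna4, at 1.10 and 1.197 times its level. The other 12 pairs had the ligand below the receptor in both embryos. Sema4c was 0.0461 times Plxnb2 in embryo 1 and 0.104 times in embryo 2, or 0.0901 and 0.243 times on protein-coding transcripts alone. Sema7a was 0.118 and 0.137 times Plxnc1, and Sema4d was 0.364 and 0.363 times Plxnb1. Sema3e was 0.521 times Plxnd1 in embryo 1 and 0.883 times in embryo 2. RNA of ligand and receptor can lie in different cells of the midbrain, which bulk libraries do not resolve.

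The leading places depended on which transcripts were counted. The family had 185 annotated transcripts with values, 96 of them protein-coding in GENCODE M21. The next 2 counts have no share over all genes beside them and only describe the family. More than 90% of TPM lay in a single transcript in both embryos for 12 genes. By mean share over the 2 embryos, the most abundant transcript was protein-coding in 30 of 31 genes. The exception was Plxnb2, whose most abundant entry was Plxnb2-205, a processed transcript of 841 nt at its 3′ end, with 46.5% of the gene's TPM in embryo 1 and 54.5% in embryo 2. The full-length Plxnb2-202, of 6377 nt, held 4482 of the gene's 5388 counts in embryo 1 and 2944 of 3717 counts in embryo 2. Because TPM divides counts by length, short fragments weigh more in TPM than in counts.

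Besides Plxnb2, Plxna3, Sema6a and Sema6c had more than 40% of their TPM outside protein-coding transcripts in both embryos. For Plxna3 it was 50.9% of TPM in embryo 1 and 59.8% in embryo 2, from 20.7% and 32.4% of counts. For Sema6c it was 55.6% of TPM in embryo 1 and 55.3% in embryo 2, from 38.4% and 38.6% of counts. For Sema6a it was 43.6% and 43.8% of TPM, and for Plxnb2 52.0% and 59.9% of TPM but 11.1% and 14.8% of counts. The median gene of the family had 7.70% of its TPM outside protein-coding transcripts in embryo 1 and 6.82% in embryo 2, against 1.42% and 1.43% for the median of 12785 detected protein-coding genes. Transcripts not in GENCODE M21 have no type there and were counted as outside. The family has 1 such transcript, in Sema4f, and it holds all of the 7.70% and 6.82% of that gene, which is the median gene.

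On protein-coding transcripts alone, Plxna1 was the most abundant gene of the family, with 54.9 TPM in embryo 1 and 46.9 TPM in embryo 2. Sema6a followed with 42.5 TPM in embryo 1 and 36.0 TPM in embryo 2, and Plxnb2 with 39.8 and 26.4 TPM. Plxna1 over Plxnb2 was thus 1.38 in embryo 1 and 1.78 in embryo 2 on this scale, against 0.662 and 0.712 on all transcripts. Sema6c was at rank 12 with 13.5 TPM in embryo 1 and 15.2 TPM in embryo 2, no longer apart from Sema6d with 16.5 and 14.1 TPM. Class 6 remained the largest ligand class, with 42.6% of semaphorin TPM in embryo 1 and 40.1% in embryo 2. Nrp1 over Nrp2 moved little, to 2.34 and 2.28, while Sema6a over Plxna2 was lower, at 2.41 in embryo 1 and 2.42 in embryo 2, and Sema6a over Plxna4 too, at 3.54 and 3.03.

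**Figure D2:**
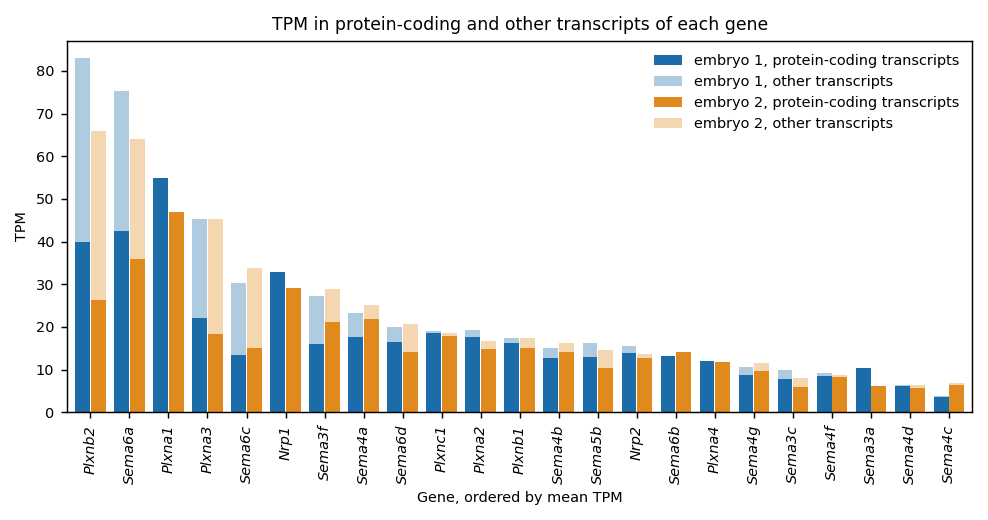
Bars give the TPM of each gene with a mean of at least 5 TPM, embryo 1 (blue) left of embryo 2 (orange), with protein-coding transcripts in full colour and other transcripts pale on top. The pale parts are tall in Plxnb2, Sema6a, Plxna3 and Sema6c, and absent or nearly so in Plxna1 and Nrp1.

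Isoforms of 3 genes differed in their coding sequence, and these segments are shown since they change the protein that a gene makes. Nrp2 is known to occur in an a form and a b form with unlike membrane-spanning and cytoplasmic ends, each with or without a short insert. The junction where the 4 main transcripts part is given with the last 12 shared coding bases followed by 30 bases, and the 15-base insert is in capitals (chr1:62786302-62786316, plus strand, exon 15 of Nrp2-203, GRCm38).
Nrp2-204 (a form): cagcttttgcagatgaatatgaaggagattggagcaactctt
Nrp2-203 (a form with insert): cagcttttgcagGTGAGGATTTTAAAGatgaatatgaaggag
Nrp2-205 (b form): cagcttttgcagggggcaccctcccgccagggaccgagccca
Nrp2-201 (b form with insert): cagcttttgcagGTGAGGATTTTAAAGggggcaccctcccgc

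The a form was the more abundant in both embryos, and its share was steady. Of the TPM of the 6 protein-coding Nrp2 transcripts, those ending in the 302-base coding end of the a form (chr1:62815333-62815634) held 57.9% in embryo 1 and 60.6% in embryo 2. The 278-base end of the b form (chr1:62795709-62795986) held 42.1% and 39.4%. The insert was less steady, with 31.7% of that TPM in embryo 1 and 45.7% in embryo 2. In the authors' posterior mean values it was 45.5% in embryo 1 and 48.6% in embryo 2. The difference lay in Nrp2-203, listed at 0 TPM in embryo 1 and at 2.28 TPM in embryo 2, while Nrp2-204 had 6.91 and 4.31 TPM.

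Sema3f occurred with and without a 93-base exon near the start of its coding sequence (chr9:107691356-107691448, minus strand, exon 5 of Sema3f-204), shown in capitals between the 12 coding bases on each side.
Sema3f-204: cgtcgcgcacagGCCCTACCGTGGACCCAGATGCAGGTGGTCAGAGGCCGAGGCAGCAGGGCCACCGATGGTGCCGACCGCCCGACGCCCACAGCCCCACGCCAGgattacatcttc
The exon was in 10.1% of the TPM of the protein-coding transcripts that span it in embryo 1 and in 23.4% in embryo 2. Most Sema3f therefore lacked it, and the share differed between the embryos by more than 2 times. Sema3f-204 rested on 62.1 estimated counts in embryo 1 and 201.5 in embryo 2, divided among overlapping transcripts by the authors' model.

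Sema6d varied in the stretch before its membrane span, in a 39-base exon (chr2:124660244-124660282) and a 57-base exon (chr2:124660705-124660761), both of the plus strand. They are shown in capitals between 12 coding bases on each side.
Sema6d exon 16: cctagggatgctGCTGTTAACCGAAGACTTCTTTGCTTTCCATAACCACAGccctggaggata
Sema6d exon 17: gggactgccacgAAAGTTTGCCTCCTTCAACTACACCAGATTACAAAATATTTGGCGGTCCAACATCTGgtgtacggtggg
The 39-base exon was in 21.8% of the TPM of the spanning protein-coding transcripts in embryo 1 and in 12.3% in embryo 2. The 57-base exon was in 37.4% and 33.2%. A 168-base exon next to it (chr2:124662204-124662371) was in 27.3% in embryo 1 and 32.5% in embryo 2, all over the same 8 protein-coding transcripts. The most abundant Sema6d transcript, Sema6d-208, lacks all 3 exons and held 37.8% of the gene's TPM in embryo 1 and 37.4% in embryo 2.

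**Figure D3:**
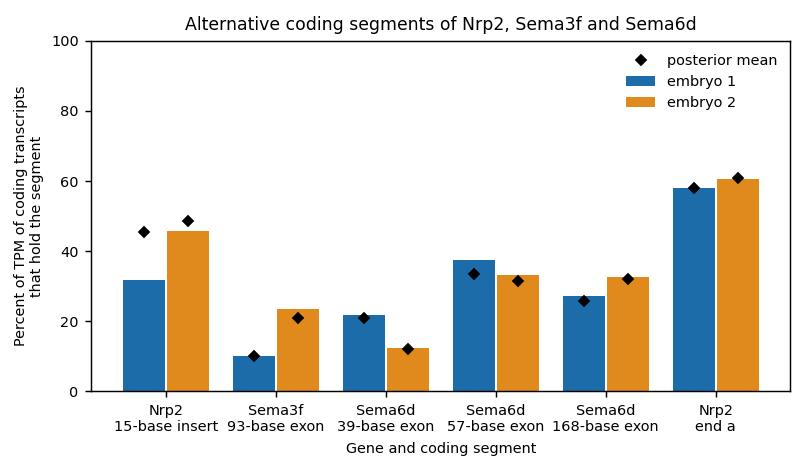
Bars give the percent of coding-transcript TPM that holds each segment of Nrp2, Sema3f and Sema6d, embryo 1 (blue) left of embryo 2 (orange), and diamonds give the same from posterior mean TPM. The a end of Nrp2 is near 60% in both embryos, and the bar of the Nrp2 insert in embryo 1 lies below its diamond.

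Between the embryos most genes of the family were close, as were most of all genes with enough counts. Ratios are embryo 1 over embryo 2 in counts scaled by the TMM method, with 95% intervals that cover counting error only, for the 29 genes with at least 100 summed counts. The median log2 ratio was 0.001 over the family and -0.006 over 14011 genes, and the median absolute log2 ratio was 0.15 over the family and 0.23 over all genes. In 25 of 29 genes the ratio was within 1.5-fold, a share near the 85.8% found over all 14011 genes. With 2 replicates of 1 group there is no test of these ratios, which describe the spread between the 2 animals.

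At least 2-fold between embryos was reached by 2 of 29 genes, against a background of 4.79% of genes in either direction. Sema3d was 2.09 times higher in embryo 1 (1.52 to 2.90), from 132 and 57 counts, and Sema4c was 2.02 times higher in embryo 2 (1.72 to 2.37), from 243 counts in embryo 1 and 443 in embryo 2. Plxnd1 lay just under the rule at 1.997 times higher in embryo 1 (1.73 to 2.31), from 615 and 278 counts. Which of these genes pass depended on the scaling: with DESeq2 size factors the log2 ratio was 1.08 for Sema3d, 1.02 for Plxnd1 and -0.99 for Sema4c, so that Plxnd1 took the place of Sema4c, and with the length trend removed it was 0.96 for Sema3d, 0.91 for Plxnd1 and -1.11 for Sema4c. Sema3a was 1.51 times higher in embryo 1 (1.36 to 1.67) and Plxnb2 1.31 times (1.26 to 1.37). On the other side, Sema3f was at 0.766 (0.710 to 0.827) and Sema4a at 0.793 (0.732 to 0.858) of embryo 2. Of these 4 genes, 3 left their intervals when TPM ratios replaced scaled counts. The log2 ratio went from -0.384 to -0.078 for Sema3f, from -0.335 to -0.113 for Sema4a and from 0.590 to 0.783 for Sema3a. Plxnb2 stayed inside with TPM ratios, at 0.333, but left its interval with spike-in scaling, at 0.499. The authors' TPM intervals were apart between the embryos for 13 of 29 genes, 7 semaphorins and 6 receptors, against 45.6% of all genes.

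The larger ratios in favour of embryo 1 stood beside higher levels of those markers. All 8 endothelial markers had a ratio above 1, among them Kdr, the VEGF receptor, with 21.6 TPM in embryo 1 and 7.18 TPM in embryo 2. All 7 mesenchyme and meninges markers with enough counts were at least 2-fold higher in embryo 1, among them Col3a1 with 187 TPM in embryo 1 and 2.81 TPM in embryo 2, and none of the list was at 0 in either embryo. Summed TPM of 6 cell cycle markers was 264 in embryo 1 and 126 in embryo 2, and of 8 microglia and macrophage markers 126 and 48.2. Their part in the ratios of Sema3d, Plxnd1, Sema3a and Plxnb2 was not tested.

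By class, all 6 class 4 semaphorins had a ratio below 1, from 0.495 for Sema4c to 0.978 for Sema4d. The intervals of Sema4d (0.862 to 1.11) and Sema4f (0.834 to 1.04) include 1, and both genes turned round under other scalings. Of 12920 protein-coding genes with enough counts, 6554 were higher in embryo 1 and 6366 in embryo 2. Both class 5 genes had a ratio above 1, 1.11 for Sema5b (1.02 to 1.21) and 1.08 for Sema5a (0.974 to 1.19), the second with an interval that includes 1. The neuropilins were level, with 1.02 for Nrp1 (0.972 to 1.07) and 1.00 for Nrp2 (0.932 to 1.07). For Sema3b, the TPM of 2.53 in embryo 1 and 1.19 in embryo 2 came with nearly equal counts of 72 and 65, a ratio of 1.00 (0.705 to 1.42). A retained-intron fragment of 358 nt took 53.0% of its TPM in embryo 1 and was listed at 0 in embryo 2.

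**Figure D4:**
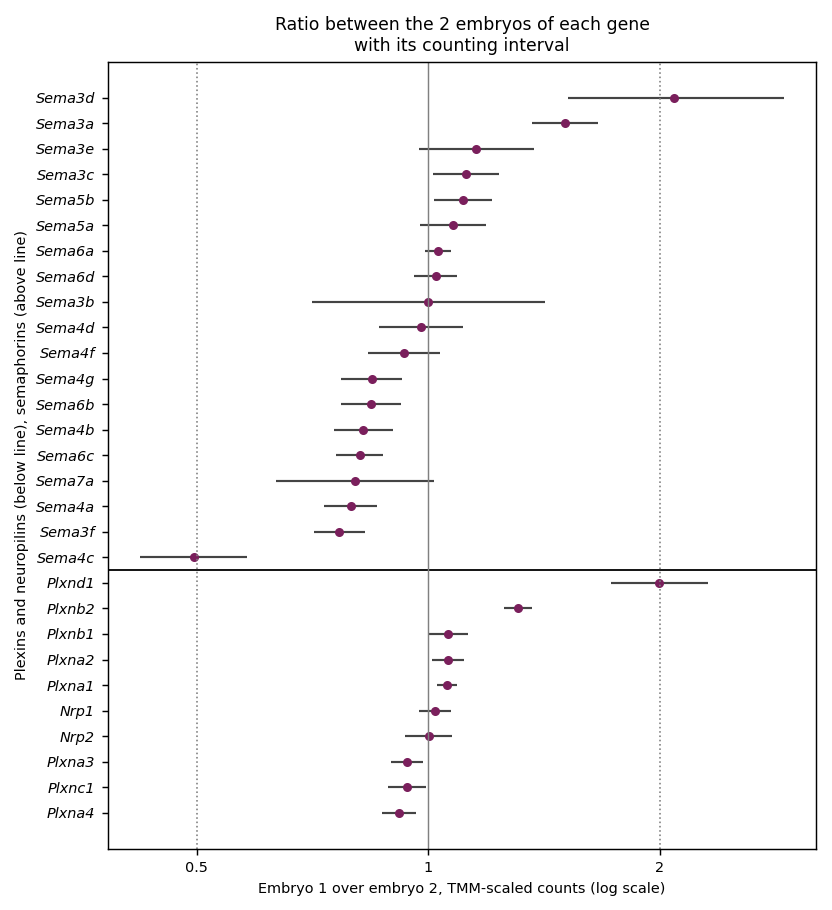
Points give the ratio of embryo 1 over embryo 2 in TMM-scaled counts on a log axis, lines the 95% counting interval, for the 29 genes with at least 100 summed counts, with dotted lines at 2-fold in either direction. Sema3d and Plxnd1 lie at or near the right dotted line and Sema4c at the left one.

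Among 46 other genes of the pathway, 41 were detected by the same rule, against 59.5% of protein-coding genes. Of 44 with enough counts, 5 were at least 2-fold apart, 3 higher in embryo 1 and 2 higher in embryo 2, against 4.79% of all genes. The most abundant were cofilin and 3 of the collapsin response mediators, proteins that bind tubulin and pass on Sema3a signals. Dpysl2 had 1169 TPM in embryo 1 and 963 TPM in embryo 2, Dpysl3 had 839 and 867 TPM, and Crmp1 had 719 and 738 TPM. Cfl1, the actin-severing cofilin, had 2664 TPM in embryo 1 and 2630 TPM in embryo 2, and Gsk3b, a kinase of the CRMPs, had 159 and 168 TPM. These levels were far above those of any ligand or receptor of the family. Gipc1, an adaptor that binds the tail of Nrp1, had 92.5 TPM in embryo 1 and 81.2 TPM in embryo 2.

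Adhesion molecules that serve as co-receptors of neuropilins were also abundant. Chl1 had 79.6 TPM in embryo 1 and 81.1 TPM in embryo 2, L1cam had 84.5 and 65.9 TPM, and Nrcam had 72.0 and 49.7 TPM. All 3 lay above both neuropilins in each embryo. Of the GTPases and exchange factors, all 10 were detected, led by Rac1 with 285 TPM in embryo 1 and 257 TPM in embryo 2. Rap1b, a GTPase on which plexins act, had 186 and 154 TPM, and Sh3bp1, a GTPase-activating protein tied to semaphorin signalling, had 91.5 and 116 TPM.

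The MICAL enzymes oxidise actin downstream of class A plexins. Mical1 had 16.4 TPM in embryo 1 and 13.3 TPM in embryo 2, Mical3 had 12.6 and 11.9 TPM, and Mical2 had 1.06 and 1.43 TPM. None of the TPM of Mical3 was on a transcript typed as protein-coding in GENCODE M21, and for Mical1 the protein-coding share was 58.0% in embryo 1 and 60.3% in embryo 2. Transcripts missing from GENCODE M21 were counted as outside here too. How much of the Mical3 TPM lay on such transcripts was not examined, so the value does not show that Mical3 RNA was non-coding. Furin-type proteases, which cut class 3 semaphorins at their basic sites, were modest. Pcsk7 had 12.1 TPM in embryo 1 and 10.7 TPM in embryo 2, Pcsk5 had 5.32 and 4.35 TPM, and Furin had 3.96 and 3.6 TPM. Of the VEGF ligands that also bind neuropilins, Vegfb led with 26.7 TPM in embryo 1 and 37.0 TPM in embryo 2, followed by Pgf with 4.19 and 5.43 TPM. Vegfa had 2.70 and 3.73 TPM, below Vegfc in embryo 1 (3.46 TPM) and above it in embryo 2 (2.58 TPM).

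The 5 pathway genes past 2-fold were in several roles. Kdr was 2.72 times higher in embryo 1 (2.51 to 2.95), Fes, a kinase that binds plexins, 2.43 times (1.67 to 3.61), and Itga1, an integrin subunit, 2.31 times (1.98 to 2.70). Cd72, a receptor for Sema4d on B cells, had a ratio of 0.482 (0.409 to 0.567), and Limk1, the kinase that inactivates cofilin, a ratio of 0.475 (0.438 to 0.514), both being higher in embryo 2.

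**Figure D5:**
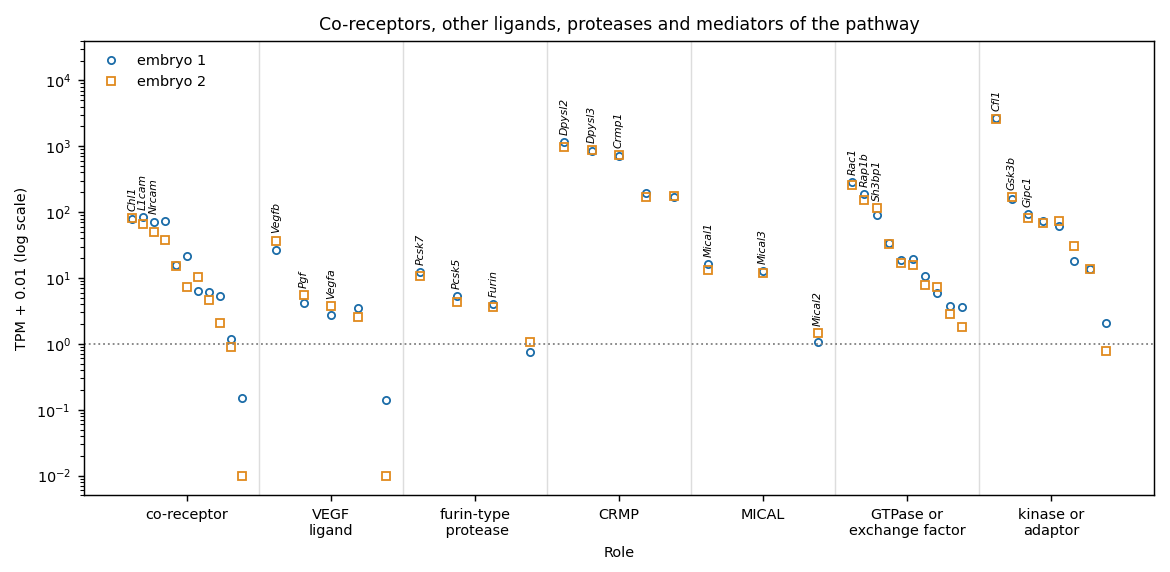
TPM plus 0.01 on a log axis of 46 co-receptors, other ligands, proteases and mediators by role, embryo 1 as blue circles and embryo 2 as orange squares, with the 3 highest of each role named and the level of 1 TPM dotted. The CRMPs and Cfl1 lie highest, and 2 genes listed at 0 in embryo 2 lie at the offset.

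Other guidance families give a scale for these levels. The 31 semaphorin, plexin and neuropilin genes summed to 588 TPM in embryo 1 and 543 TPM in embryo 2, and 22 Eph and ephrin genes to 530 and 510 TPM, with 20 of 22 detected and a median of 14.5 TPM. On protein-coding transcripts alone the order of these sums turned, with 434 TPM in embryo 1 and 394 TPM in embryo 2 for the semaphorin family, against 479 and 461 TPM for Eph and ephrin genes. Slits, Robos and netrins with their receptors, 15 genes of which 14 were detected, summed to 335 TPM in embryo 1 and 252 TPM in embryo 2, with a median of 11.3 TPM. The median of the semaphorin family, 13.7 TPM, lay between these 2 medians.

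Overlap with other genes touched 7 members, and the strand of the reads is not stated in the labels. Plxna1 shares 970 exonic bases with the antisense gene Gm26811, which had 0.96 TPM in embryo 1 and 0.71 TPM in embryo 2. Sema4c shares 334 bases with D430040D24Rik on the other strand, at 0.95 and 0.85 TPM. Whether reads of the shared bases were split correctly between the partners was not tested.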

How the data were processed

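Total RNA of 2 midbrains was sequenced, and each library is 1 replicate of the same group. The authors deposited, per the file headers, expected counts, TPM, posterior mean TPM and TPM credibility bounds per gene and transcript, on mm10 with GENCODE M4, per the deposited text record. The quantifier and the level of the bounds are unknown (not given in the sources used here). The bounds belong to the posterior mean, so a maximum-likelihood TPM can lie outside them. Symbols, transcript types and coding sequences came from GENCODE M21 (GRCm38), which matched 98.0% of Ensembl rows and all 31 genes. Spike-ins and rows with a numeric identifier, which held 6 and 14 counts, stayed out of library sizes.

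Expected counts were rounded for scaling factors and for fold ratios with their intervals. Ratios used TMM scaling (edgeR 4.0.16, R 4.3.3) and genes with at least 100 summed counts. Log2 ratios and the 2-fold rule used unrounded counts and a prior count of 0.5, while fold ratios used no prior count. The interval was an exact conditional binomial interval (scipy 1.17.1) of counting error alone. It treats each count as a separate molecule. PCR reads lacking molecular identifiers need not be separate molecules, so the interval can be too narrow. Over 18910 genes the biological coefficient of variation was 26.5%. The scaling script was tested on simulated counts. No p-value was computed, as 2 replicates of 1 group allow no test. Alternatives were DESeq2 1.42.0 size factors, spike-in scaling, TPM ratios, removal of the length trend, other minima and prior counts, posterior means, each embryo alone and, chosen after seeing the data, protein-coding transcripts only.

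All 31 genes are named, with transcripts of those above 5 TPM, the top 3 pathway genes per role and those past 2-fold. The Sema3b fragment and the segments of Nrp2, Sema3f and Sema6d were chosen after their values were seen. The members and lists were chosen with earlier results of these data known.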

Additional observations from a re-analysis of the deposited data

How the results depend on the processing

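The median TPM of the family, 13.7, was 13.4 with posterior means, 11.95 on protein-coding transcripts only, and 13.25 to 13.65 in either embryo alone. Ligand over receptor, 0.981 on sums, was 0.510 on medians. The count of genes past 2-fold, 2, was 1 with the length trend removed, 1 with a prior count of 5 and 3 with TPM ratios, where Sema3b (log2 1.08) and Plxnd1 (1.14) entered and Sema4c (-0.84) left. The median log2 ratio, 0.001, was 0.112 with spike-in scaling and -0.088 with the length trend removed. The median share of the leading transcript, 81.3%, was 71.6% with posterior means. Spike-in scaling put the median of all genes at 0.10 and TPM ratios put it at 0.13, so single ratios are best read against those shifts. Of 155 ratios of single genes under alternatives, 36 left the counting interval, and 10 genes changed direction at least once: Sema3b, Sema4d, Sema4f, Sema6a, Sema6d, Plxna3, Plxna4, Plxnc1, Nrp1 and Nrp2. The cause was not tested. No paired analysis was possible because the libraries form 1 group. Depth limits Sema3g, Plxnb3, Sema3b and Sema3d, and transcript shares rest on the authors' division of shared reads.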
